A study of Homo sapiens with 21 samples.

Results

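The herbicide 2,4-D was present in 9 of 15 exposed RNA-seq libraries of C3A cells, and the 9 were compared with the 6 exposed libraries that lacked it. C3A is a clone of the human hepatoma line HepG2, so every library came from 1 cell line. The 15 libraries were chosen by their exposure labels out of 21 in the series. The 6 unexposed libraries were not used. Each exposure lasted 48 h and gave 3 libraries. The libraries without 2,4-D came from cells given glyphosate, at 5.6 µM (0.95 µg/mL), or AMPA, at 34 µM (3.7 µg/mL). AMPA is aminomethylphosphonic acid, which forms when glyphosate is broken down. The libraries with 2,4-D came from cells given 2,4-D alone at 2.5 µM (0.56 µg/mL), the same 2,4-D with glyphosate, or the same 2,4-D with AMPA, where the partner compound kept the concentration it had alone. All 15 libraries thus share an exposure to at least 1 compound. The labels do not say whether the replicates were separate cultures, so p-values measure the spread between these libraries, which may be technical. They also name no culture, extraction or sequencing batch, so 2,4-D and a batch shared by its 9 libraries cannot be told apart. Cells given 2,4-D alone differ from the 6 reference libraries in both compounds, and the mixtures against their own partners are therefore also given.

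2,4-D is a synthetic auxin of the phenoxyacetic acid type that drives uncontrolled growth in broad-leaved plants. In rodent liver such acids are known to act on the fatty acid receptor PPAR alpha, which induces genes of fatty acid oxidation. Glyphosate blocks an enzyme of aromatic amino acid synthesis that animal cells do not have. Hepatoma lines of this kind keep many hepatocyte functions, among them plasma protein secretion, lipid synthesis and amino acid breakdown, and take much of their energy from glycolysis. The readout of bulk RNA cannot tell fewer cells of a type from less RNA per cell.

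The cells carried the markers of a hepatocyte-derived line. All 12 hepatocyte and hepatoma markers were detected, and 11 of them reached at least 10 FPKM in every library. FPKM is a level scaled by gene length and library size. Albumin (ALB) lay between 3693 and 4390 FPKM and alpha-fetoprotein (AFP) between 2407 and 2903. The summed level of the 12 markers was 10591 to 11463 FPKM without 2,4-D and 10091 to 11665 with it. Of 22 markers of fibroblasts, stellate, endothelial, blood and bile duct cells, 15 stayed under 1 FPKM in every library of which the endothelial receptor gene KDR was at 0 and 5 others, such as the collagen gene COL1A2 and the leukocyte gene PTPRC, were not listed. LYZ, EPCAM, SOX9, KRT19 and ACTA2 reached at least 10 FPKM in every library. The summed level of the 22 was 754 to 800 FPKM without 2,4-D and 643 to 760 with it, of which LYZ, the lysozyme gene, made up 473 to 589 in libraries with it. LYZ (log2 difference -0.16; limma adjusted p 0.0277) and KRT19, a keratin gene of bile duct and tumour cells (-0.26; limma adjusted p 0.00979), were called lower with 2,4-D, and their part in the results was not tested.

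Depth was similar across libraries, with 15202557 to 24352443 reads per library recovered from the FPKM values. Of 12927 genes tested, 10296 were protein-coding. The median 95% interval of the pooled difference reached 0.10 to either side on the log2 scale, which sets the size of effect that could be seen.

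2 libraries stood apart from the rest. AMPA+2,4-D replicates 1 and 3 had scores of 24.7 and 25.9 on the first principal component, which held 20.9% of the variance. The other 7 libraries with 2,4-D lay between -4.5 and 2.3, and the 6 without it between -9.2 and -6.5. The root mean square log2 difference from libraries of other groups was 0.344 and 0.350 for the 2 libraries and 0.278 to 0.297 for the rest. Most counts of called genes and list members below are therefore also given without these 2 libraries where they change.

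**Figure D1:**
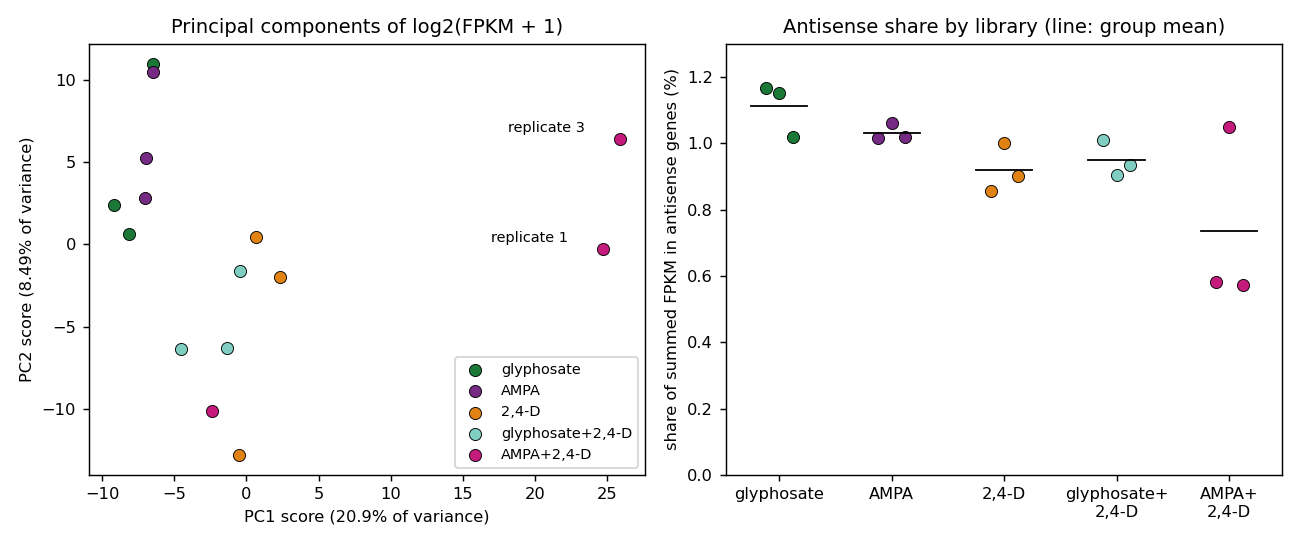
Left, scores of the 15 libraries on the first and second principal components of log2(FPKM + 1), coloured by exposure; AMPA+2,4-D replicates 1 and 3 lie alone at 24.7 and 25.9 on the first, and the 6 libraries without 2,4-D lie lowest, at -9.2 to -6.5. Right, the share of the summed FPKM in antisense genes, in percent, with 1 point per library and a line at each group mean; the same 2 libraries lie lowest, at 0.581% and 0.574%.

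The pooled comparison of 9 libraries with 2,4-D against 6 without it called 821 of 12927 genes (6.35%) at a limma adjusted p under 0.05. Of these, 288 (2.23%) were higher and 533 (4.12%) were lower with 2,4-D. The differences were small. The median absolute difference of called genes was 0.16 on the log2 scale of FPKM + 1, and 50 genes reached 0.5. The sign was the same in all 3 component comparisons for 802 of the 821. The pooled difference is the mean of these 3, so a shared sign among called genes is largely built in. The 9 and 6 libraries did not overlap for 183 genes (1.42%), 70 (0.542%) with all 9 above and 113 (0.874%) with all 9 below. Without AMPA+2,4-D replicates 1 and 3, 281 genes (2.17%) were called, 85 (0.658%) higher and 196 (1.52%) lower, and 256 of them were among the 821 with the same direction. Without the whole AMPA+2,4-D group 247 (1.91%) were called, 75 (0.58%) higher and 172 (1.33%) lower. Leaving out any 1 of the 6 libraries without 2,4-D gave 386 to 539 genes, leaving out AMPA+2,4-D replicate 1 gave 492, and leaving out its replicate 2, which lay nearer the other exposures, gave 1404. The balance of directions depended on the scaling. After rescaling each library to the same summed level (TPM) 521 genes were called, 309 higher and 212 lower, so that 59.3% were higher against 35.1% on the deposited scale. With the exposure group as a random block, which lets differences among exposures enter the error, 135 genes were called, all of them among the 821.

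Protein-coding genes held 719 of the calls (6.98% of 10296; 266 or 2.58% higher and 453 or 4.4% lower). Without AMPA+2,4-D replicates 1 and 3, 78 protein-coding genes were called higher and 168 lower. Among genes that met the rule for named genes, the largest increase was in GSTA2. GSTA2 (ENSG00000244067, chromosome 6, 52750089 to 52763569, minus strand, GRCh38), a glutathione transferase of the alpha class, lay at 2.12 FPKM in the lowest, 2.34 in the median and 3.13 in the highest library without 2,4-D. With 2,4-D the values were 3.21, 4.81 and 7.30 FPKM. Every library with 2,4-D was above every library without it. The log2 difference was 0.82 ± 0.12 (SE), with a limma adjusted p of 0.00485, and the adjusted p was 0.0220 without the 2 libraries that stood apart. GSTA2 rested on 44 to 169 reads per library. It shares near-identical sequence with GSTA1, which averaged 1.06 ± 0.20 FPKM (SD, n = 6) without and 2.03 ± 0.80 (SD, n = 9) with 2,4-D and was not called (limma adjusted p 0.0752), so how reads divide between them is uncertain.

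TECTB (ENSG00000119913, chromosome 10, 112283400 to 112305035, plus strand) encodes beta-tectorin, a matrix protein of the inner ear. Its FPKM ran from 1.14 through a median of 1.38 to 1.74 without 2,4-D and from 2.14 through 2.97 to 3.14 with it. No library overlapped between the groups, and TECTB rested on 72 to 205 reads per library. The log2 difference was 0.66 ± 0.07 (SE; limma adjusted p 0.0016). It was the 1 gene called higher (0.00774%) among 4 called for 2,4-D added to glyphosate (0.0309%), and the 1 called higher (0.00774%) among 3 called for 2,4-D alone (0.0232%). TECTB was thus higher by 0.73 in the glyphosate pair, 0.60 in the AMPA pair and 0.64 with 2,4-D alone.

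GPAM (ENSG00000119927, chromosome 10, 112149864 to 112215377, minus strand) encodes the mitochondrial acyltransferase that starts glycerolipid synthesis. Its FPKM was 11.3, 13.2 and 14.9 in the lowest, median and highest library without 2,4-D and 16.3, 19.3 and 22.2 with it. The 3 exposures with 2,4-D gave similar increases in GPAM, with log2 differences of 0.50 in the glyphosate pair, 0.56 in the AMPA pair and 0.43 for 2,4-D alone (pooled limma adjusted p 0.00406). SLC17A2 (chromosome 6, 25912754 to 25930726), of the sodium phosphate carrier family, had a mean of 18.6 ± 1.70 FPKM (SD, n = 6) without 2,4-D and 27.3 ± 4.27 (SD, n = 9) with it, and a log2 difference of 0.52 ± 0.08 (SE; limma adjusted p 0.00474). IDH1 (chromosome 2, 208236227 to 208266074), the cytosolic isocitrate dehydrogenase that makes NADPH, averaged 51.6 ± 2.80 FPKM (SD, n = 6) without 2,4-D and 65.0 ± 4.87 (SD, n = 9) with it, a log2 difference of 0.33 ± 0.04 (SE; limma adjusted p 0.00374). All 9 libraries with 2,4-D were above the 6 for SLC17A2 and for IDH1.

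The other increases among the 12 largest were smaller or less separated. METTL7A, a methyltransferase-like protein of lipid droplets (log2 difference 0.34), ASF1A, a histone chaperone (0.32), and FNDC4, a secreted protein (0.31), remained called without the 2 outlying libraries, at limma adjusted p of 0.0254, 0.0451 and 0.0292. NR1H4, the bile acid receptor FXR, ran from 7.91 to 10.3 FPKM without 2,4-D and from 10.4 to 14.7 with it (limma adjusted p 0.030). NR1H4 (0.111), TCEAL1 (0.0592), FAM173B (0.124) and the mitochondrial ATP synthase subunit gene MT-ATP8 (0.189) were not called without those 2 libraries, with these adjusted p from limma. MT-ATP8 overlapped between groups, at 195 to 303 FPKM without 2,4-D and 207 to 485 with it.

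**Figure D2:**
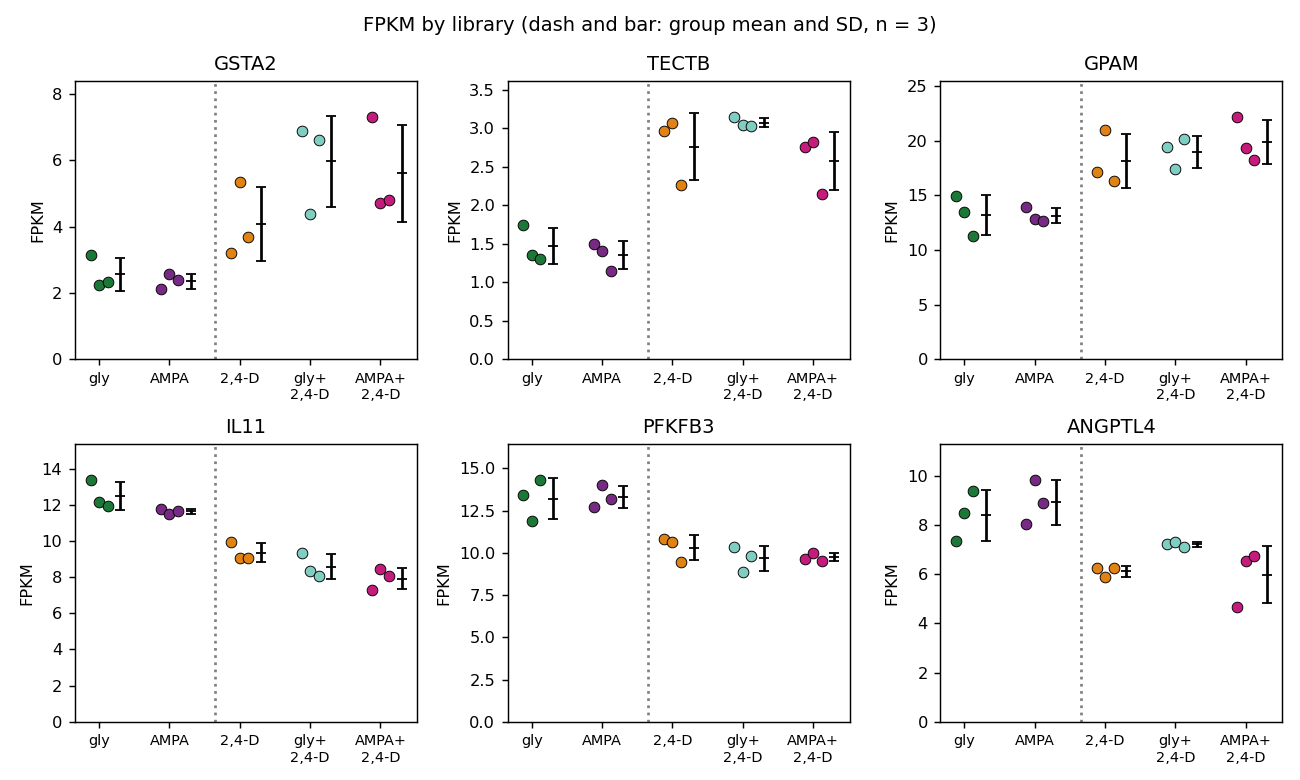
FPKM of 6 genes by exposure, with 1 point per library and, beside the points, a dash at the group mean and a bar of 1 SD (n = 3). Libraries right of the dotted line were given 2,4-D; they are all above those on the left for GSTA2, TECTB and GPAM and all below them for IL11, PFKFB3 and ANGPTL4.

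Among the 12 largest decreases, IL11 had the smallest p. IL11 (ENSG00000095752, chromosome 19, 55364389 to 55370463, minus strand), a cytokine of the interleukin 6 family, lay at 11.5, 11.9 and 13.4 FPKM in the lowest, median and highest library without 2,4-D. With 2,4-D the values were 7.29, 8.44 and 9.95 FPKM, so that no library overlapped. The log2 difference was -0.44 ± 0.04 (SE), and the limma adjusted p of 0.000809 was the smallest of all genes. IL11 was called in the glyphosate pair (-0.49; limma adjusted p 0.0342) and in the AMPA pair (-0.50; limma adjusted p 0.00342). The 2 pairs share no library, but both tests used 1 spread estimated from all 15 libraries. Fitted on its own libraries alone, the glyphosate pair called 0 genes.

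RPS28 (chromosome 19, 8321158 to 8323340), a subunit of the small ribosome, ran from 85.8 to 94.3 FPKM without 2,4-D and from 50.8 to 77.6 with it. Its log2 difference was -0.42 ± 0.05 (SE; limma adjusted p 0.00192) and was larger in the AMPA pair (-0.65) than in the glyphosate pair (-0.24), a difference between pairs that was not called (limma adjusted p 0.139). RPS28 has processed copies elsewhere in the genome, so its counts are uncertain. S100A2 (chromosome 1, 153561108 to 153567890), a calcium-binding protein gene, lay at 4.61 ± 0.30 FPKM (SD, n = 6) without 2,4-D and 3.22 ± 0.38 (SD, n = 9) with it, with no overlap (log2 difference -0.42; limma adjusted p 0.00485). ANKRD1 (chromosome 10, 90912096 to 90921276), an ankyrin repeat protein and target of the co-activator YAP, lay between 33.2 and 43.2 FPKM without 2,4-D and between 25.6 and 30 with it (log2 difference -0.39; limma adjusted p 0.00413).

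ANGPTL4 (ENSG00000167772, chromosome 19, 8363289 to 8374373, plus strand) encodes a secreted inhibitor of lipoprotein lipase and is a known target of PPAR receptors and of hypoxia. Its FPKM was 7.34, 8.69 and 9.84 in the lowest, median and highest library without 2,4-D and 4.66, 6.54 and 7.33 with it. The groups did not overlap, by a gap of 0.01 FPKM, and ANGPTL4 fell by 0.38 on the log2 scale (limma adjusted p 0.0103, and 0.0246 without the 2 outlying libraries). HIST1H1C, a linker histone (log2 difference -0.35), and DUSP5, a phosphatase of ERK kinases (-0.35), also separated all 9 libraries from all 6. WDR38, GPSM3 and RPS29 had log2 differences of -0.53, -0.38 and -0.37 but were not called without AMPA+2,4-D replicates 1 and 3, at limma adjusted p of 0.133, 0.0681 and 0.0566. WDR38 rested on 17 to 76 reads per library. Of the 24 largest increases and decreases, 17 were called without those 2 libraries.

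**Figure D3:**
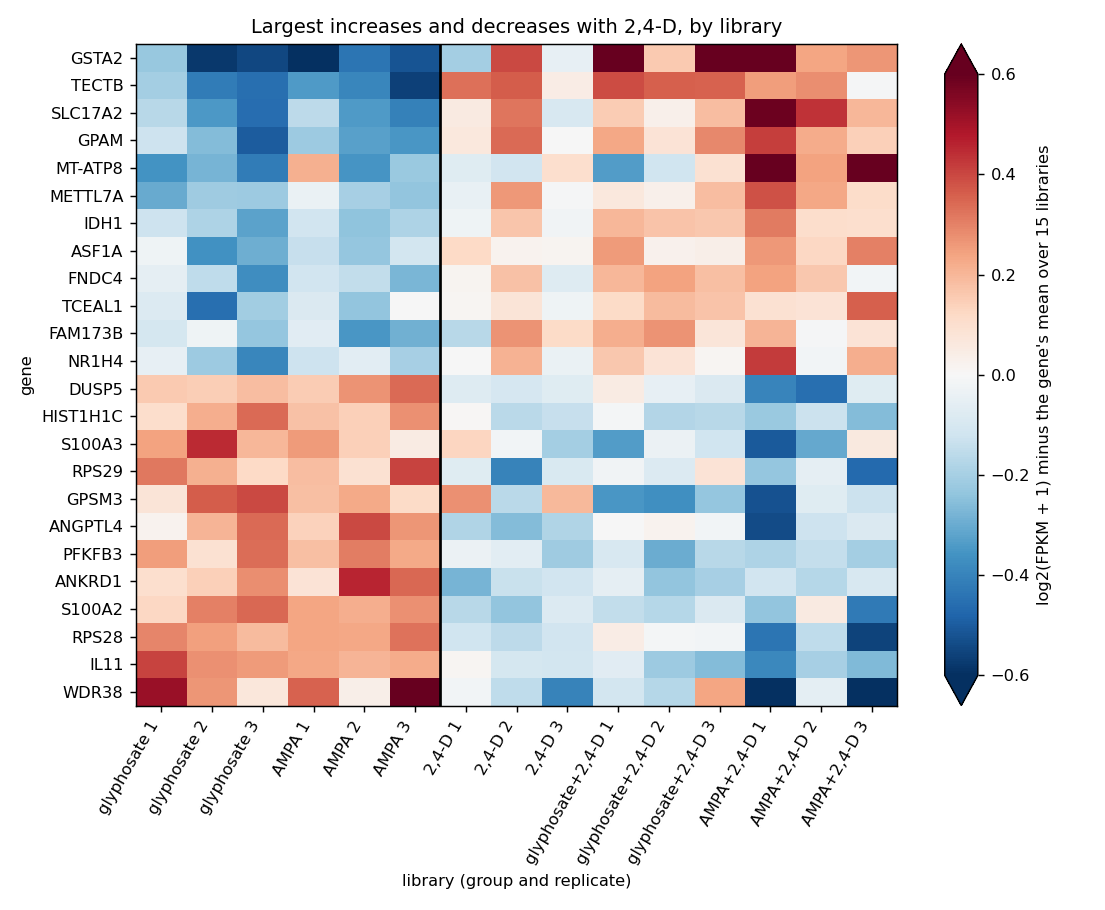
24 protein-coding genes, the 12 that rose most and the 12 that fell most by the rule for named genes (rows), in each of the 15 libraries (columns), as log2(FPKM + 1) minus the mean of the gene over the 15; red is above and blue below that mean, and values past 0.6 on either side share the end colour. The vertical line parts the 6 libraries without 2,4-D from the 9 with it, and the colours change there in all 3 exposures with 2,4-D for most of the 24 genes. The rule required the same sign in all 3 component comparisons, so this change was selected for.

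Many glycolytic and hypoxia-induced genes fell with 2,4-D. This list of glycolytic enzymes, glucose transporters and targets of the hypoxia-inducible factor HIF had 35 tested members. 14 of the 35 were called lower and 0 higher, against 4.12% and 2.23% of all genes tested, and all 35 had a difference below 0. The median log2 difference of the list was -0.13, against -0.005 over all genes tested. It was -0.08 in the glyphosate pair and -0.22 in the AMPA pair. PFKFB3 (ENSG00000170525, chromosome 10, 6144934 to 6254644, plus strand) makes fructose 2,6-bisphosphate, the main activator of glycolytic flux. PFKFB3 lay at 11.9, 13.3 and 14.3 FPKM in the lowest, median and highest library without 2,4-D and at 8.87, 9.81 and 10.8 with it. Its log2 difference was -0.39 ± 0.04 (SE; limma adjusted p 0.00192), with -0.41 in the glyphosate pair, -0.41 in the AMPA pair and -0.34 with 2,4-D alone.

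SLC2A1 (chromosome 1, 42925375 to 42959176), the glucose transporter GLUT1, ran from 153 to 167 FPKM without 2,4-D and from 132 to 145 with it, with a log2 difference of -0.20 (limma adjusted p 0.00215). PFKFB4, an isoform of PFKFB3, ran from 13 to 15.9 FPKM without and from 10.6 to 12.4 with 2,4-D (-0.29; limma adjusted p 0.00745). The libraries of these 3 genes did not overlap between groups. ADM, the hypoxia-induced peptide adrenomedullin (-0.19), HK2, the inducible hexokinase (-0.23), and SLC2A3 (-0.23) overlapped in at least 1 library, as did the enzyme genes PKM (-0.19), PGK1 (-0.17), TPI1 (-0.18) and ENO1 (-0.13) and the angiogenic factor VEGFA (-0.09), all of them called lower. ENO1 had -0.24 in the AMPA pair and -0.04 in the glyphosate pair, and TPI1 -0.40 and 0.00, and 0 genes were called by limma for a difference between the pairs (143 by voom). GAPDH (-0.12) was not called (limma adjusted p 0.0648). Without AMPA+2,4-D replicates 1 and 3, 5 of the 35 were called lower at a median of -0.14, and after TPM rescaling 9 were, at a median of -0.11 with none above 0. With the exposure group as a random block 4 were called, and without the whole AMPA+2,4-D group 3 were called lower.

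Cytoskeletal genes showed a similar pattern. The actin and serum response factor (SRF) list had 19 tested members. Of these, 10 were called lower and 0 higher, against 4.12% and 2.23% of all genes tested. All 19 lay below 0, at a median log2 difference of -0.12, with -0.05 in the glyphosate pair and -0.24 in the AMPA pair. TAGLN, the smooth muscle actin-binding protein transgelin, ran from 7.5 to 8.33 FPKM without 2,4-D and from 5.46 to 7.33 with it (log2 difference -0.27; limma adjusted p 0.00218). FLNA, the actin crosslinker filamin A, ran from 100 to 106 FPKM without and from 76.1 to 97.5 with 2,4-D (-0.21; limma adjusted p 0.00582). TAGLN and FLNA did not overlap between groups. The non-muscle myosin MYH9 (-0.16), the actin genes ACTB (-0.14) and ACTG1 (-0.11), the actinins ACTN1 (-0.15) and ACTN4 (-0.12), CNN2 (-0.12), TLN1 (-0.09) and SRF itself (-0.10) were also called lower. In the glyphosate pair ACTB (-0.01) and ACTG1 (-0.01) were near 0, against -0.29 and -0.21 in the AMPA pair. 6 of the 19 were called without AMPA+2,4-D replicates 1 and 3, 4 after TPM rescaling and 2 with the random block. Without the whole AMPA+2,4-D group 2 were called lower.

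Both lists have a known promoter element, so the 250 bases before the first listed RefSeq start of each gene (GRCh38.p14) were searched on both strands. The CArG box, the element that SRF binds, is a run of 6 A or T bases between CC and GG, and it was in 1.14% of 27305 promoters. Of the 10 actin list members called lower, 8 had a promoter in the table and 4 of these held a CArG box, and of the 15 tested members with a promoter 5 did. The list was drawn up to hold SRF targets, and whether the element has a part in the differences was not tested. The 4 are printed 5′ to 3′ on the strand of the gene, with the CArG box in capitals. They are FLNA (chrX:154374635-154374884, minus strand), ACTG1 (chr17:81512800-81513049, minus strand), CNN2 (chr19:1026358-1026607, plus strand) and SRF (chr6:43171019-43171268, plus strand).
FLNA: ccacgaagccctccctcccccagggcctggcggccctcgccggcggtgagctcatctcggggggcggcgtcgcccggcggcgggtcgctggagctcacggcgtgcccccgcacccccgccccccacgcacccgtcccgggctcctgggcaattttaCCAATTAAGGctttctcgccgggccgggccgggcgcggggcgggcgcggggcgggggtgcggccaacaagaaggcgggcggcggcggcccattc
ACTG1: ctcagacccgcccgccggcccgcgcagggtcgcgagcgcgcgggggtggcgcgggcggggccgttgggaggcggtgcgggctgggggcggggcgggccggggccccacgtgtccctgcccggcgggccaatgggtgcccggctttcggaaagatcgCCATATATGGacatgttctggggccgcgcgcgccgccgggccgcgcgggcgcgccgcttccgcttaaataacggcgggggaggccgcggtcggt
CNN2: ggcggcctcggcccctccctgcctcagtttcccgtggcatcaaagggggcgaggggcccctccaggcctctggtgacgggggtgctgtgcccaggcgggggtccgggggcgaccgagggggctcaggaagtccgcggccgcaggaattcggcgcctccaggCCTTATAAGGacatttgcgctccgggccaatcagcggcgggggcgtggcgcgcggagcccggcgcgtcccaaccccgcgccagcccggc
SRF: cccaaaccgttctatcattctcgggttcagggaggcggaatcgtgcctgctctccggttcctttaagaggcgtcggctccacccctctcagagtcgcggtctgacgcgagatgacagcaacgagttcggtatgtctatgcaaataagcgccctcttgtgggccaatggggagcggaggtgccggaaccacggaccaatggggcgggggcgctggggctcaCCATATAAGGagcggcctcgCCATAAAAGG
The SRF promoter window holds the element at both positions printed in capitals. The core of the hypoxia response element, ACGTG, was in 18.68% of all promoters. Of the 14 glycolysis and hypoxia members called lower, 10 had a promoter and 3 of these held it (HK2, ALDOA and PGK1), while 16 of the 30 tested members with a promoter did. PGK1 (chrX:78103998-78104247, plus strand) holds it on both strands, in capitals, where CACGT is the core read from the other strand.
PGK1: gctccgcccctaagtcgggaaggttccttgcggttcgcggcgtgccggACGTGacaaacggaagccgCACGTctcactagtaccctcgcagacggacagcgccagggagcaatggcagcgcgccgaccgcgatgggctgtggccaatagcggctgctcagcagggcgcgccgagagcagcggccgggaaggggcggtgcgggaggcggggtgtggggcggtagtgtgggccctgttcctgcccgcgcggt
The amino acid response element core TGATGNAA was in 3.19% of promoters and in 0 of the 2 called members of the ATF4 list that had a promoter. A match describes the letters of these windows and shows no binding.

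The members of 4 signalling lists that were called were all lower. Of 22 tested immediate early genes 6 were called lower and 0 higher, against 4.12% and 2.23% of all genes, at a median log2 difference of -0.09. DUSP1, which switches off MAP kinases, ran from 44.8 to 55.6 FPKM without 2,4-D and from 34.6 to 45.1 with it (log2 difference -0.27; limma adjusted p 0.00745). The stress factor ATF3 (-0.20), the AP-1 subunit FOSL1 (-0.23), KLF6 (-0.12), IER3 (-0.18) and the matricellular factor CTGF (-0.14) were also called lower. EGR1 had a difference of 0.11 and was not called (limma adjusted p 0.248). Without AMPA+2,4-D replicates 1 and 3, 2 of the 22 were called.

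Of 18 YAP and TEAD targets 4 were called lower and 0 higher, against 4.12% and 2.23% of all genes. They were ANKRD1, CTGF, CRIM1 (log2 difference -0.14) and the receptor tyrosine kinase AXL (-0.30). Of 17 regulators of IGF and WNT signalling 3 were called lower and 0 higher. They were IGFBP3, which binds insulin-like growth factors (-0.34; limma adjusted p 0.0366), the WNT antagonist DKK1 (-0.29; limma adjusted p 0.0316) and NKD1 (-0.13). Their limma adjusted p was 0.0826, 0.102 and 0.0757 without the 2 outlying libraries, and after TPM rescaling 0 of the 17 were called. Of 15 interferon and NF-kB genes 4 were called lower and 0 higher, against the same shares of all genes. The chemokine CCL20 led them, at 288 to 313 FPKM without 2,4-D and 227 to 283 with it (log2 difference -0.24; limma adjusted p 0.00779). Leaving out the 2 outlying libraries, 2 of the 18 YAP and TEAD targets and 1 of the 15 interferon and NF-kB genes were called lower, and TPM rescaling left 1 of those 15 called.

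Of 22 heat shock chaperone genes 4 were called lower and 0 higher, against 4.12% and 2.23% of all genes, at a median of -0.05. The co-chaperone DNAJB1 ran from 82.1 to 96 FPKM without 2,4-D and from 69.8 to 79.8 with it, with no overlap (log2 difference -0.24; limma adjusted p 0.00439). BAG3 (-0.24), the heat shock factor HSF1 (-0.15) and HSPB1 (-0.16) were called lower too. The inducible chaperone HSPA6 varied more, from 7.44 to 18.2 FPKM with 2,4-D against 8.34 to 9.96 without it, and was not called (log2 difference 0.26; limma adjusted p 0.240). HSPA1A was not called (-0.10; limma adjusted p 0.485). 1 of the 4 was called after TPM rescaling and 1 without the 2 outlying libraries.

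In the list of the amino acid response driven by the transcription factor ATF4, the called members were higher. Of 29 tested members 8 were called higher and 0 lower, against 2.23% and 4.12% of all genes tested, at a median log2 difference of 0.07. The difference was above 0 for 19 of the 29, and ATF4 itself was not called. The list median was 0.08 in the glyphosate pair and 0.01 in the AMPA pair. PSAT1 (ENSG00000135069, chromosome 9, 78297143 to 78330093, plus strand), an enzyme of serine synthesis, lay at 132, 141 and 147 FPKM in the lowest, median and highest library without 2,4-D and at 154, 161 and 177 with it. Its log2 difference was 0.22 ± 0.03 (SE; limma adjusted p 0.00439), with no overlap. PSPH, the last enzyme of serine synthesis, ran from 20.8 to 23.3 FPKM without and from 23.5 to 27.5 with 2,4-D (0.19; limma adjusted p 0.00779). NUPR1, a stress-induced transcription cofactor, ran from 5.86 to 6.76 without and from 6.92 to 8.59 with 2,4-D (0.23; limma adjusted p 0.00485). PSPH and NUPR1 did not overlap between groups either.

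The mitochondrial folate enzymes MTHFD2 (log2 difference 0.15) and ALDH1L2 (0.29), the cystine carrier SLC7A11 (0.20) and the tRNA synthetases GARS (0.13) and WARS (0.13) were also called higher. PHGDH, the first enzyme of serine synthesis, had a difference of 0.08 and was not called (limma adjusted p 0.186). The ATF4 target CHAC1 had 0.22 (limma adjusted p 0.194) and STC2 -0.10 (limma adjusted p 0.0791). PSAT1, NUPR1, PSPH and SLC7A11 were the 4 members called without AMPA+2,4-D replicates 1 and 3. With TPM rescaling, and also with median-of-ratios scaling, 8 members were called higher and 0 lower. Without the whole AMPA+2,4-D group 3 were called higher, and with the exposure group as a random block 4 were.

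Of 24 unfolded protein response genes 2 were called higher and 0 lower, against 2.23% and 4.12% of all genes. They were the chaperones HSP90B1 (log2 difference 0.14; limma adjusted p 0.0101) and HSPA5 (0.10; limma adjusted p 0.0342). Of 24 genes of the urea cycle and amino acid breakdown 4 were called higher and 1 lower, against the same shares of all genes. Those called higher included MAT1A, the hepatic methionine adenosyltransferase (log2 difference 0.23; limma adjusted p 0.029), SARDH, which breaks down sarcosine (0.19; limma adjusted p 0.0122), and ASS1, of the urea cycle (0.18; limma adjusted p 0.0217). SARDH did not overlap between groups, at 3.09 to 3.50 FPKM without 2,4-D and 3.58 to 4.26 with it. Without the 2 outlying libraries 1 unfolded protein response gene was called higher, and of the urea cycle and amino acid list 2 were called higher, ASS1 among them, and 0 lower.

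Of 20 aldo-keto reductases and glutathione transferases 3 were called higher and 0 lower, against 2.23% and 4.12% of all genes: GSTA2, AKR1B10 (log2 difference 0.25; limma adjusted p 0.0361) and AKR1C2 (0.23; limma adjusted p 0.0345). AKR1C2 has close paralogs, and neither reductase was called without the 2 outlying libraries (limma adjusted p 0.119 and 0.0831). Of 23 NRF2 antioxidant genes 2 were called higher, AKR1B10 and SLC7A11, and 1 lower, which became 1 and 1 without those 2 libraries. Of 10 tested targets of the xenobiotic receptors CAR and PXR 0 were called higher and 1 lower, POR, the electron donor of cytochrome P450 enzymes (-0.15; limma adjusted p 0.00825). CYP2B6 ran from 17.4 to 19.8 FPKM without 2,4-D and from 15.3 to 20 with it and was not called (limma adjusted p 0.142). Of 6 tested aryl hydrocarbon receptor targets 0 were called, and CYP1A1 had a log2 difference of -0.17 (limma adjusted p 0.196). CYP3A4 had at most 3 reads in any library and was not tested.

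Targets of PPAR alpha and genes of fatty acid oxidation showed no shared direction. Of 26 tested members 1 was called higher and 1 lower, against 2.23% and 4.12% of all genes, at a median log2 difference of 0.00. The member called higher was PPARGC1A, a co-activator of mitochondrial genes, which ran from 6.81 to 7.88 FPKM without 2,4-D and from 8.06 to 9.11 with it (0.19; limma adjusted p 0.00485). The member called lower was ANGPTL4. CPT1A, which admits fatty acids to mitochondria, had a difference of -0.03 ± 0.03 (SE; limma adjusted p 0.497), and the lipid droplet protein PLIN2 had -0.14 (limma adjusted p 0.0583). PDK4 had at most 8 reads in any library and was not tested. Of 11 tested organic anion carriers, 1 was called, the lactate exporter SLC16A3 (-0.20; limma adjusted p 0.0276). Without the 2 outlying libraries SLC16A3 was not called (limma adjusted p 0.102), and of the PPAR alpha list 2 were called higher and 1 lower.

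The calls among lipid synthesis genes went in both directions, where 4.12% of all genes were called lower and 2.23% higher. Of 23 cholesterol genes 3 were called lower and 1 higher, with DHCR7 (log2 difference -0.24) and EBP (-0.09), enzymes of cholesterol synthesis, among the lower. Among 23 fatty acid and triglyceride genes GPAM and MTTP (0.14), which loads lipid onto APOB, were called higher and 3 lower, namely AGPAT2 (-0.23), ACSS2 (-0.14) and LPIN2 (-0.12). AGPAT2 acts just after GPAM in glycerolipid synthesis. The median log2 difference was -0.04 for the cholesterol genes and -0.008 for the fatty acid and triglyceride genes. Without the 2 outlying libraries 1 cholesterol gene was called lower and 0 higher, and of the fatty acid and triglyceride genes 1 was called higher and 2 lower.

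Of 26 plasma protein genes 4 were called higher and 4 lower. Their median log2 difference was -0.05, with 0.06 in the glyphosate pair and -0.16 in the AMPA pair. Of all genes tested 2.23% were called higher and 4.12% lower, the shares to set beside each list here. FGA, a chain of fibrinogen, ran from 50.7 to 56.4 FPKM without 2,4-D and from 57.2 to 73.1 with it (log2 difference 0.26; limma adjusted p 0.00277). Its partner chain FGG (0.18; limma adjusted p 0.00779) and APOB, the core protein of very low density lipoprotein (0.16; limma adjusted p 0.00485), were also called higher, and prothrombin, F2, lower (-0.11; limma adjusted p 0.0137). Of 15 hepatocyte transcription factors 2 were called higher, HNF4A (0.10; limma adjusted p 0.0462) and FOXA1 (0.15; limma adjusted p 0.0303), and 0 lower. Of 19 p53 targets 1 was called higher and 3 lower, GDF15 among the latter (-0.20; limma adjusted p 0.0105). Of 32 cell cycle genes 2 were called higher, TOP2A (0.21) and AURKA (0.19), and 2 lower, MCM5 (-0.14) and E2F1 (-0.21). With the 2 outlying libraries left out, 0 cell cycle genes and 0 hepatocyte transcription factors were called, and of the p53 targets 1 was called higher and 0 lower. Of the plasma protein genes 3 were then called higher and 1 lower. The 4 metallothionein genes tested gave 0 calls.

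**Figure D4:**
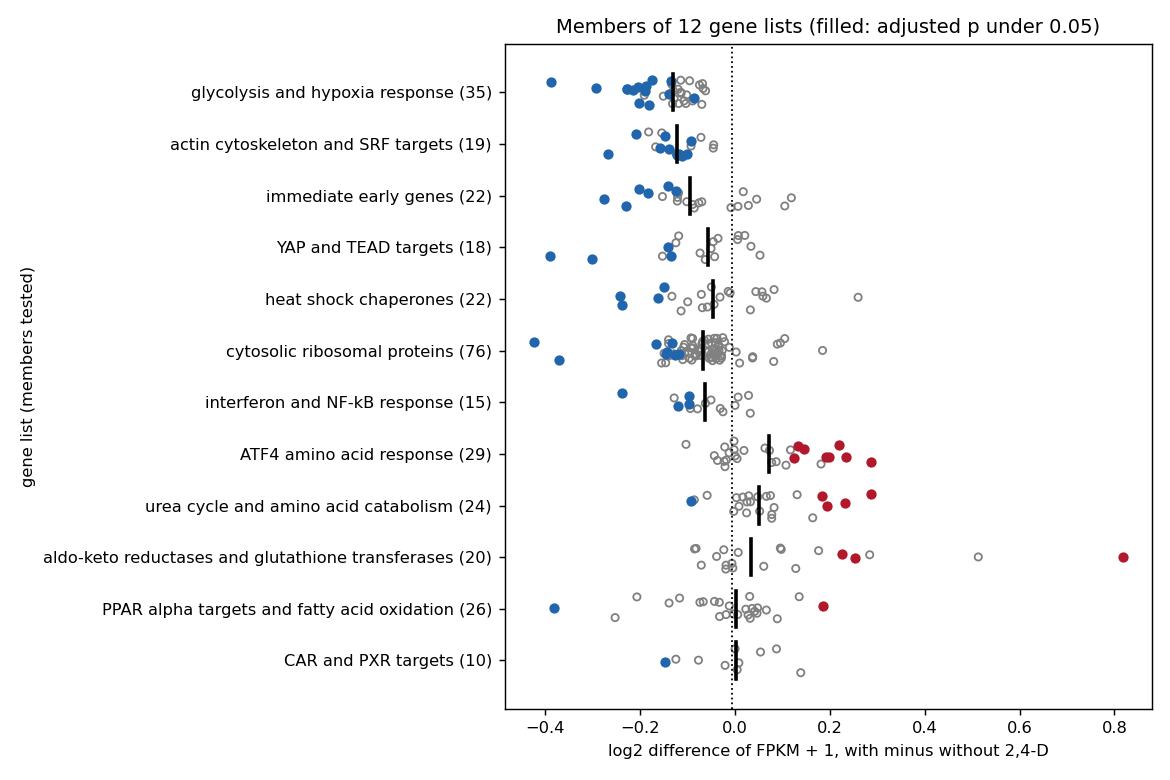
Log2 difference of FPKM + 1, with minus without 2,4-D, for the tested members of 12 of the 30 gene lists, with 1 point per gene, filled red where called higher and blue where called lower by limma, and open where not called; a black bar marks each list's median and the dotted line the median of all genes tested. The members of the glycolysis and actin lists all lie below 0, and called members of the ATF4 list all lie above it.

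Of 76 tested ribosomal protein genes 8 were called lower and 0 higher, against 4.12% and 2.23% of all genes, and 1 was called without the 2 outlying libraries. The median log2 difference was -0.07, with 0.02 in the glyphosate pair and -0.12 in the AMPA pair. Their share of the summed FPKM was 9.30 ± 0.17% (SD, n = 6) without 2,4-D and 8.97 ± 0.40% (SD, n = 9) with it, which did not pass a two-sided exact permutation test over 5005 splits (p = 0.0847). The 13 mitochondrially encoded protein genes made up 14.4 ± 1.5% (SD, n = 6) and 15.5 ± 1.2% (SD, n = 9), with an exact permutation p of 0.126. Among them MT-CO3 (log2 difference 0.23; limma adjusted p 0.00784) and MT-ATP8 were called higher, and MT-CO3 alone without the 2 outlying libraries. Of 51 nuclear genes of oxidative phosphorylation 1 was called lower, UQCRC1 (-0.12; limma adjusted p 0.0104), and 0 higher. Of 9 replication-dependent histone genes HIST1H1C was the 1 called.

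Genes annotated as antisense to another gene were called at about the background share in total, 6.41% against 6.35%. By direction, the share called lower was above that of all genes and the share called higher was below it. Of 733 tested, 43 (5.87%) were called lower and 4 (0.546%) higher, against 4.12% and 2.23% of all genes, at a median log2 difference of -0.13. When AMPA+2,4-D replicates 1 and 3 were left out, 12 were called lower and 2 higher, at a median of -0.07. Their share of the summed FPKM was 1.07 ± 0.07% (SD, n = 6) without 2,4-D and 0.868 ± 0.176% (SD, n = 9) with it. This difference had a two-sided exact permutation p of 0.0124 over 5005 splits (Benjamini-Hochberg 0.0496 over the 4 gene groups whose share was tested), in a test added after the data were seen. The 2 outlying libraries had the lowest shares, 0.581% and 0.574%, and AMPA+2,4-D replicate 2 had the highest with 2,4-D, 1.05%. Without the 2 the difference was -0.12 percentage points (exact permutation p 0.0128 over 1716 splits). By recovered reads rather than FPKM the exact permutation p was 0.0362 (Benjamini-Hochberg 0.145). The strand of counting is not stated, so reads of a gene and of its antisense partner cannot be told apart.

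A protein-coding gene on the opposite strand was tested for 595 of the antisense genes, and 42 of these 595 were called lower. The median log2 difference of the coding partners was -0.02 over all 595. For the partners of the 42 it was -0.07, and 7 of those 42 were called lower. Over all 595, 51 partners were called lower, where 4.4% of all protein-coding genes tested were. AC006064.4, which overlaps GAPDH, averaged 166 ± 17.6 FPKM (SD, n = 6) without and 95.6 ± 38.5 (SD, n = 9) with 2,4-D, a log2 difference of -0.94 (limma adjusted p 0.0397), and MIF-AS1 15.4 ± 2.26 and 7.99 ± 3.00 (-0.95; limma adjusted p 0.011), while MIF had -0.13 (limma adjusted p 0.275). The differences without AMPA+2,4-D replicates 1 and 3 were -0.52 for AC006064.4 and -0.65 for MIF-AS1. These antisense examples were chosen after their values were seen. In 52 pairs whose coding partner was abundant, the antisense level had a median of 1.62 to 1.88% of its partner without 2,4-D. With 2,4-D it was 1.21 to 1.84% in 7 libraries, 0.795% in AMPA+2,4-D replicate 1 and 0.484% in replicate 3. Whether this composition has a part in the gene differences was not tested.

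The mixtures against their own partner compounds gave the balanced form of the comparison, 6 libraries against 6, and called 847 genes (6.55%), 311 (2.41%) higher and 536 (4.15%) lower. Without AMPA+2,4-D replicates 1 and 3 it called 84, and leaving out single libraries gave 408 to 1544. The 2 pairs contributed unequally. 2,4-D added to AMPA called 940 genes (7.27%), 313 (2.42%) higher and 627 (4.85%) lower, and 2 without the outlying replicates. Without any 1 of its 3 AMPA libraries it called 400 to 465, and without AMPA+2,4-D replicate 1, 2 or 3 it called 224, 1681 and 361. The spread in these tests was estimated from all 15 libraries together. Within AMPA+2,4-D the root mean square log2 difference between libraries was 0.304 to 0.350, against 0.252 to 0.276 within the other groups. Fitted on the libraries of each pair alone, the AMPA pair called 1 gene and the glyphosate pair 0. 2,4-D added to glyphosate called 4 genes (0.0309%), with 1558 at an unadjusted p under 0.05. TECTB was higher, and 3 (0.0232%) were lower, namely IL11, ARFGEF3 (log2 difference -0.28) and SPRY4, an inhibitor of receptor tyrosine kinase signalling (-0.24), all named after their values were seen. 2,4-D alone against glyphosate and AMPA called 3 genes (0.0232%), with 1669 at an unadjusted p under 0.05. TECTB was higher, and 2 (0.0155%) were lower, the antisense gene AL592166.1 (-0.90) and the pseudogene RPS7P10 (-0.75), also named after their values were seen.

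The pairs share no library, so their differences can be set side by side. Of the 940 genes called in the AMPA pair, 699 (74.4%) had the same sign in the glyphosate pair, against 58.0% of all 12927 genes. Among the 313 called higher the share was 76.0%, and among the 627 called lower it was 73.5%. The glyphosate pair had smaller differences in these genes, with a median of -0.06 for those called lower, against -0.26 in the AMPA pair where they were selected. Across all genes Pearson's r between the pairs was 0.213, where genes are not independent replicates. In the glyphosate and AMPA pairs IL11 had -0.49 and -0.50, PFKFB3 -0.41 and -0.41, TECTB 0.73 and 0.60, and GSTA2 0.96 and 0.96. These genes were chosen by the rule for named genes, which required the same sign in both pairs, so their agreement is no test.

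**Figure D5:**
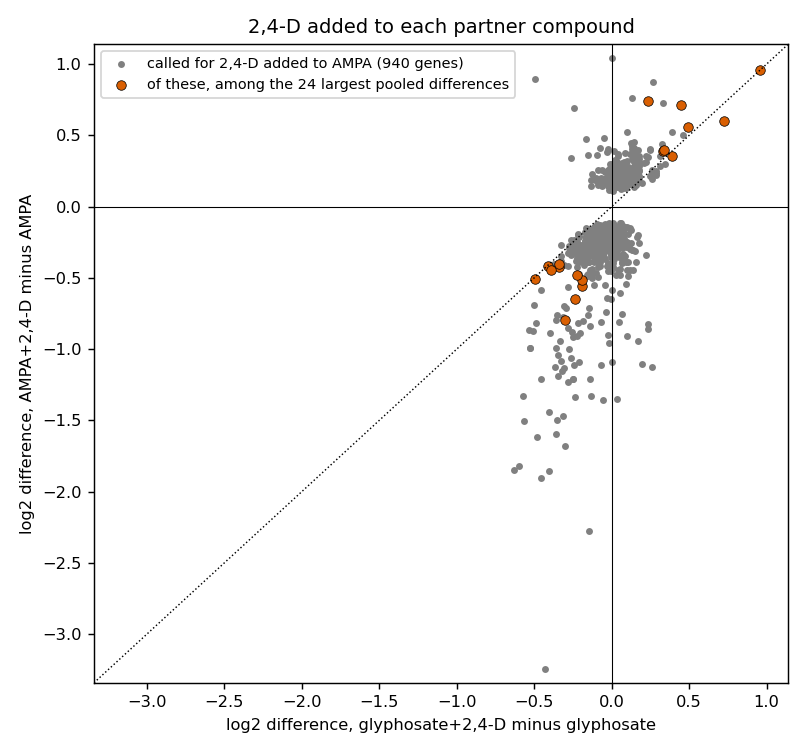
Log2 difference of FPKM + 1 when 2,4-D was added to glyphosate (horizontal) and to AMPA (vertical), for the 940 genes called in the AMPA pair, with those among the 24 largest pooled differences in orange; the dotted line marks equal differences. Of the 940, 699 have the same sign on both axes, and most lie farther from 0 on the AMPA axis, on which they were selected.

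Whether the effect of 2,4-D differed by partner was tested as the difference between the pairs. This test called 0 genes by limma on log2 FPKM (0%) and 143 by voom on recovered reads, with 1671 at an unadjusted p under 0.05 and a smallest adjusted p of 0.072. The genes with the smallest p were SLC13A5, a citrate carrier (0.18 in the glyphosate pair and -0.25 in the AMPA pair), NDUFA4L2 (-0.02 and -0.39) and APOC3, an apolipoprotein (0.16 and -0.39). In the opposite direction they were SELENOI (-0.01 and 0.27), MBIP (-0.08 and 0.41) and SLC5A3, the inositol carrier (-0.26 and 0.34). The limma adjusted p was 0.072 for each of the 6.

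Fewer genes were called for the partner compound than for 2,4-D, a contrast of counts that was not itself tested. AMPA against glyphosate, with and without 2,4-D, called 16 genes (0.124%), 7 (0.0542%) higher and 9 (0.0696%) lower with AMPA, against 847 for 2,4-D in the same 12 libraries. Among protein-coding genes the largest differences were SNCG (log2 difference -0.40), B4GALNT4 (-0.27) and VPS9D1 (-0.23) lower with AMPA, and ELOVL2, an elongase of polyunsaturated fatty acids (0.22), MPHOSPH10 (0.21) and UTRN, utrophin (0.19), higher, each at a limma adjusted p of 0.0358. The antisense gene AC010542.5 had a larger difference (-0.82; limma adjusted p 0.0453). Without AMPA+2,4-D replicates 1 and 3, 0 genes were called for the partner and 84 for 2,4-D.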

How the data were processed

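Per the labels, libraries were prepared from total RNA of C3A cells by a SMARTer protocol. Reads were aligned to GRCh38 with HISAT2 2.0.5 and counted with featureCounts 1.5.0-p3, per the submitters' processing notes, and the authors deposited FPKM values in 1 table per exposure. The scaling of FPKM and the strand setting are not given in the sources used here. FPKM times gene length gave whole reads for 100% of values (within 0.1 of a read), 15202557 to 24352443 per library.

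The 5 exposure tables were joined on gene ID, with an absent gene taken as 0 (36 of the genes tested, 0 of them protein-coding). Genes of at least 1 FPKM in 3 of 15 libraries were tested on log2(FPKM + 1) with limma 3.58.1 in R 4.3.3, by group means with a mean-variance trend, since FPKM are not counts. Benjamini-Hochberg adjustment ran over all 12927 genes, and called means an adjusted p under 0.05. Folds on this scale understate low genes. A list is described by its counts, with no set test. Named genes were the 12 largest increases and 12 largest decreases among called protein-coding genes with the same sign in all 3 component comparisons and at least 2 FPKM on one side, up to 4 members of each list by p, 3 each way for the partner comparisons, and a few fixed genes. Further list members are given from the same fit. Members, lists and rules were chosen with earlier results of these data known. In simulated data from these libraries, run on 12927 genes, 87.5% of 1.25-fold and 99.2% of 2-fold changes of genes of at least 5 FPKM were recovered for the pooled comparison. Of the genes called there, 5.9% and 4.33% were false. The simulated noise was independent between libraries, with no shared shift like that of AMPA+2,4-D replicates 1 and 3, so these rates may not hold for the real libraries. The other settings tried are under the dependence on processing. 2 settings were added after the data were seen, without the AMPA+2,4-D group and protein-coding genes only, as were the tests of the antisense and secreted protein shares. Values of some list members are not reported here.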

Additional observations from a re-analysis of the deposited data

Results flagged for a closer look

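In 3 of 56 sets of libraries examined, 1 library without 2,4-D lay far from the others of its side, as measured by its gap to the nearest library over the whole range. Chance flags about 1 in 20 such sets. MT-ATP8 was at 303 FPKM in AMPA replicate 1, against 195 to 224 in the other 5 libraries without 2,4-D. METTL7A was at 15.5 FPKM in the same library, against 12.8 to 13.8. IL11 was at 13.4 FPKM in glyphosate replicate 1, against 11.5 to 12.1. For METTL7A and MT-ATP8 this library overlaps the libraries with 2,4-D, and for IL11 it lies farther from them than the others do.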

How the results depend on the processing

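With the 5 exposure group means as the unit, 3 against 2, the pooled comparison called 0 genes by limma (1502 at an unadjusted p under 0.05), 0 list members and 0 of the 24 named genes. The pooled count of 821 became 448 with no filter, 521 on TPM, 1445 by voom on recovered reads, 465 with 2 groups only, 135 with the exposure group as a random block, 281 without AMPA+2,4-D replicates 1 and 3, and 247 without that group. The balanced count of 847 became 502 with no filter, 526 on TPM, 1500 by voom and 84 without the 2 replicates. The glyphosate pair gave 20 with no filter, 0 on TPM, 111 by voom, 0 fitted alone and 56 among protein-coding genes only, where its main count was 4. The AMPA pair gave 510, 1576 by voom, 2 without the 2 replicates and 1 fitted alone. For 2,4-D alone the counts were 1 with no filter, 0 with median-of-ratios scaling, 0 on TPM, 103 by voom, 26 without the 2 replicates and 20 among protein-coding genes. For the difference between pairs they were 10, 1 on TPM, 143 by voom and 30 among protein-coding genes. For AMPA against glyphosate they were 30, 295 by voom, 0 without the 2 replicates and 56 among protein-coding genes. Of the 110 list members called, the count became 67 with no filter, 177 by voom, 63 with 2 groups only, 29 with the random block, 44 without the 2 replicates and 37 without that group.

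Leaving out 1 library at a time gave 386 (without glyphosate replicate 3) to 1404 genes (without AMPA+2,4-D replicate 2) in the pooled comparison. The same ranges were 408 to 1544 in the balanced one, 0 to 5 in the glyphosate pair, 224 (without AMPA+2,4-D replicate 1) to 1681 in the AMPA pair, 0 to 20 for 2,4-D alone, 0 to 238 for the difference between pairs and 0 to 510 for AMPA against glyphosate. They were 58 to 141 for list members and 19 to 24 for the named genes. The ribosomal share differed by -0.391 to -0.269 and the mitochondrial share by 0.869 to 1.58 percentage points.

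Replicate numbers did not pair the samples: deviations of same-numbered libraries correlated at -0.059 to 0.099, those of others at -0.108 to 0.10. With the replicate block the counts were 699 for the pooled comparison, 2 for the glyphosate pair, 1 for 2,4-D alone and 0 for AMPA against glyphosate. Of the single genes recomputed under each setting, 0 reversed, but further list members named in the text were not recomputed singly. Over these genes and settings the outcome was the same 2262 times, a call was lost 576 times and gained 4 times. HNF4A kept its call in 9 settings and lost it in 20, E2F1 in 10 and 19, and IL11 in 28 and 1. The cause of these changes was not tested.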
